A study of Homo sapiens with 6 samples.

Results

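The transcripts of the nuclear effectors of the Hippo pathway were followed in an RNA-seq comparison of a colorectal cancer cell line after knockdown of OSBPL3. They were taken by gene symbol, and the choice was made with earlier results of these data known. They were the coactivator genes YAP1 and WWTR1, the DNA-binding partner genes TEAD1, TEAD2, TEAD3 and TEAD4, and the vestigial-like genes VGLL1, VGLL3 and VGLL4. Of these 9 symbols, 8 were found among the 20729 gene rows of the count table, and the level of VGLL1 is not analysed here. WWTR1 encodes the protein known as TAZ, a name that also belonged to the unrelated gene TAFAZZIN, so that TAZ was read from the WWTR1 row. The study holds a single contrast, cells labelled as SW620 and given an siRNA against OSBPL3 (siOSBPL3, 3 libraries) against the same labelled cells given a control siRNA (siNC, 3 libraries). The product of OSBPL3 is ORP3, one of a family of lipid-binding proteins that act at membrane contact sites, and the title of the series ties it to Hippo-YAP signalling. The dose and duration of the siRNA, and whether the replicates were grown and transfected apart, are not given in the labels, so that p-values measure no more than the variation among these 6 libraries, part or all of which may be technical.

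In the Hippo pathway a kinase cascade, in which MST kinases activate LATS kinases, phosphorylates YAP and TAZ, which holds them in the cytoplasm and marks them for degradation. YAP and TAZ do not bind DNA themselves. In the nucleus they join TEAD proteins, which recognise short DNA elements with the core GGAATG, and switch on genes of growth and the cell cytoskeleton. VGLL4 competes with YAP for TEAD and acts as a repressor, while VGLL1 and VGLL3 bind TEAD without YAP. In the intestine YAP is known for its part in regeneration after injury, and it is often abundant in colorectal tumours. Much of the control of YAP and TAZ acts on the proteins, which counts of RNA do not measure.

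Promoter sequence was read for the genes the comparison turns on, to show where the TEAD core lies. RefSeq promoter windows on GRCh38.p14, 250 bases before to 50 bases after a start, were held for 7 of the 9 symbols. The motif GGAATG was searched on both strands and was found in 14.0% of all 35116 windows. The AP-1 motif TGANTCA, which can share its first letters with the end of GGAATG, was searched in the same way. The 250 bases before the start of YAP1, of CCN2 and of TEAD3 follow, 5′ to 3′ on the strand of the gene, with each match in capitals. YAP1 is shown as a coactivator gene with a match of its own, CCN2 as a standard YAP target gene with several, and TEAD3 as a partner gene with none.
YAP1, chr11:102110197-102110446, plus strand: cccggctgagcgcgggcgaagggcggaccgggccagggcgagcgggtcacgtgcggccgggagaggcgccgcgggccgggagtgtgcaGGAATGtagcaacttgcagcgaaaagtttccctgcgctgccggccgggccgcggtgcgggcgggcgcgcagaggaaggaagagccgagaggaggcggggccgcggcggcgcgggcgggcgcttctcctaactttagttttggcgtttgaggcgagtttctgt
CCN2, chr6:131951373-131951622, minus strand: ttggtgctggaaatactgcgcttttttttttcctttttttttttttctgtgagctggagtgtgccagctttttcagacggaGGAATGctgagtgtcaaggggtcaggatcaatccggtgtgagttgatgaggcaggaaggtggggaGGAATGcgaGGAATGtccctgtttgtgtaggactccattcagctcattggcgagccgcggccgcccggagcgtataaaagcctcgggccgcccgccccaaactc
TEAD3, chr6:35497080-35497329, minus strand: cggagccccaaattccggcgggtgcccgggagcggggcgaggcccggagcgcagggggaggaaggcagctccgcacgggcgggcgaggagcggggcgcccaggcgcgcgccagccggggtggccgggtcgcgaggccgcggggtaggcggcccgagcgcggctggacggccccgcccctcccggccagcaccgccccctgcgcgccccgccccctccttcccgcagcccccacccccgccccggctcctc
The YAP1 window held 1 match, beginning 162 bases before the start. The CCN2 window held 3 matches, beginning 169, 104 and 95 bases before the start. A match describes these letters only and is not evidence of binding.

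Total counts ran from 34569895 to 39701340 in siOSBPL3 and from 30040020 to 33667128 in siNC. OSBPL3 (chromosome 7) was lower in every siOSBPL3 library, at 22.5 ± 15.4 CPM (counts per 1e6 counts on TMM-scaled library sizes, mean ± SD, n = 3) against 176 ± 2.70 CPM in siNC (n = 3), and siOSBPL3 replicate 1 kept the most of it, at 40.2 CPM against 12.2 and 15.1 CPM in replicates 2 and 3. Its log2 fold change was -2.97 ± 0.48 (adjusted p = 0.0016, edgeR quasi-likelihood test), and -3.68 without that library. The groups differed across most of the transcriptome: 80.2% of the 15506 genes tested passed an adjusted p of 0.05 (edgeR quasi-likelihood test, Benjamini-Hochberg adjustment), 40.4% higher and 39.8% lower in siOSBPL3, and 48.9% differed at least 2-fold. Of 15 markers of colorectal epithelium, EPCAM, CDH1 and the keratin genes KRT8, KRT18 and KRT19 were abundant in both groups, whereas KRT20, CDX1, CEACAM5 and GPA33 averaged under 1 CPM in both. Of the 15, 5 were called higher and 5 lower: CDX2 stood at 63.5 CPM in siOSBPL3 and at 1.15 CPM in siNC, while VIL1 stood at 62.6 CPM in siOSBPL3 and at 482 CPM in siNC. The summed level of 8 mesenchymal markers was 8.92 to 11.1 CPM in siOSBPL3 and 785 to 801 CPM in siNC, with VIM, an intermediate filament gene, at 1.64 CPM in siOSBPL3 and 694 CPM in siNC. The summed level of 5 leukocyte markers was 8.31 to 11.2 CPM in siOSBPL3 and 19.8 to 22.2 CPM in siNC, but they did not move together. CD14 was called higher, at 3.06 CPM in siOSBPL3 and 0.278 CPM in siNC. CD68, at 5.87 CPM in siOSBPL3 and 19.0 CPM in siNC, and LYZ were called lower, and PTPRC and CD3E were near 0 in both groups. The summed level of 2 endothelial markers was at most 0.803 CPM in siOSBPL3 and at most 2.25 CPM in siNC. The part of these markers in the results was not tested. The effect of the siRNA and a difference between the cells of the groups cannot be told apart here, and in these bulk samples fewer cells of a type and less RNA per cell cannot be told apart either.

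Both coactivator transcripts were lower in siOSBPL3, and most of the partner and cofactor transcripts changed with them. Of the 9 symbols, 7 passed the filter on low counts, and each of these 7 passed the test, 2 higher and 5 lower. Against a background of 80.2% of tested genes called, that count says little by itself. The libraries of the groups did not overlap for any of these 7 genes, as for 83.0% of all genes tested. A difference of at least 2-fold was seen for 5 of the 7, 2 higher and 3 lower, beside 48.9% of all genes tested. The median log2 fold change of the 7 was -0.74 beside -0.00089 over all genes tested. TMM scaling takes most genes as unchanged and so holds the value over all genes near 0. Scaled by library totals instead, 6435 genes were called higher and 5983 lower. The size and direction of each change, which differed between close relatives, follow gene by gene.

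YAP1 (chromosome 11, 102110447 to 102233424, GRCh38.p14), the principal coactivator, had 146, 140 and 155 CPM in the siOSBPL3 libraries, against 245, 252 and 240 CPM in the siNC libraries. Every siOSBPL3 library lay below every siNC library, and the groups were separated by more than the range within either. The mean in siOSBPL3 was 60.0% of the mean in siNC, and the log2 fold change was -0.74 ± 0.08 (standard error) at an adjusted p of 3.42e-06 (edgeR). YAP1 nonetheless stayed among the more abundant transcripts, above 94.8% of the genes tested by its mean CPM.

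WWTR1 (chromosome 3, 149517235 to 149724788), which encodes the YAP paralogue TAZ, had 14.98, 10.2 and 10.4 CPM in the siOSBPL3 libraries, against 26.9, 28.3 and 28.7 CPM in the siNC libraries. All siOSBPL3 libraries were lower, replicate 1 the least so. The log2 fold change was -1.24 ± 0.15 (adjusted p = 7.12e-06), a fall to 42.4% of the siNC mean. The spread within siOSBPL3 was wider for WWTR1 than for YAP1, with a coefficient of variation of 22.9% against 5.19%, while in siNC these were 3.44% for WWTR1 and 2.41% for YAP1. The library with the most WWTR1 in siOSBPL3, replicate 1, was also the one with the most OSBPL3, and the part of that library in the WWTR1 value was not tested beyond leaving it out, which gave a log2 fold change of -1.44. WWTR1-AS1, which overlaps WWTR1, had between 0 and 12 counts per library, against 372 or more for WWTR1.

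The ratio of the coactivator transcripts to each other, which does not depend on library scaling, shifted towards YAP1. There were 9.73, 13.8 and 14.9 YAP1 counts for each WWTR1 count in siOSBPL3, against 9.10, 8.89 and 8.35 in siNC. The log2 ratio was higher in all 3 siOSBPL3 libraries than in any siNC library, by 0.52 on average, although replicate 1 of siOSBPL3 stood close to siNC. An exact two-sided permutation test over libraries gave p = 0.1, the smallest that 3 libraries against 3 allow, for this ratio and for each of the 5 other ratios of factors computed (adjusted p = 0.1 for each).

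**Figure D1:**
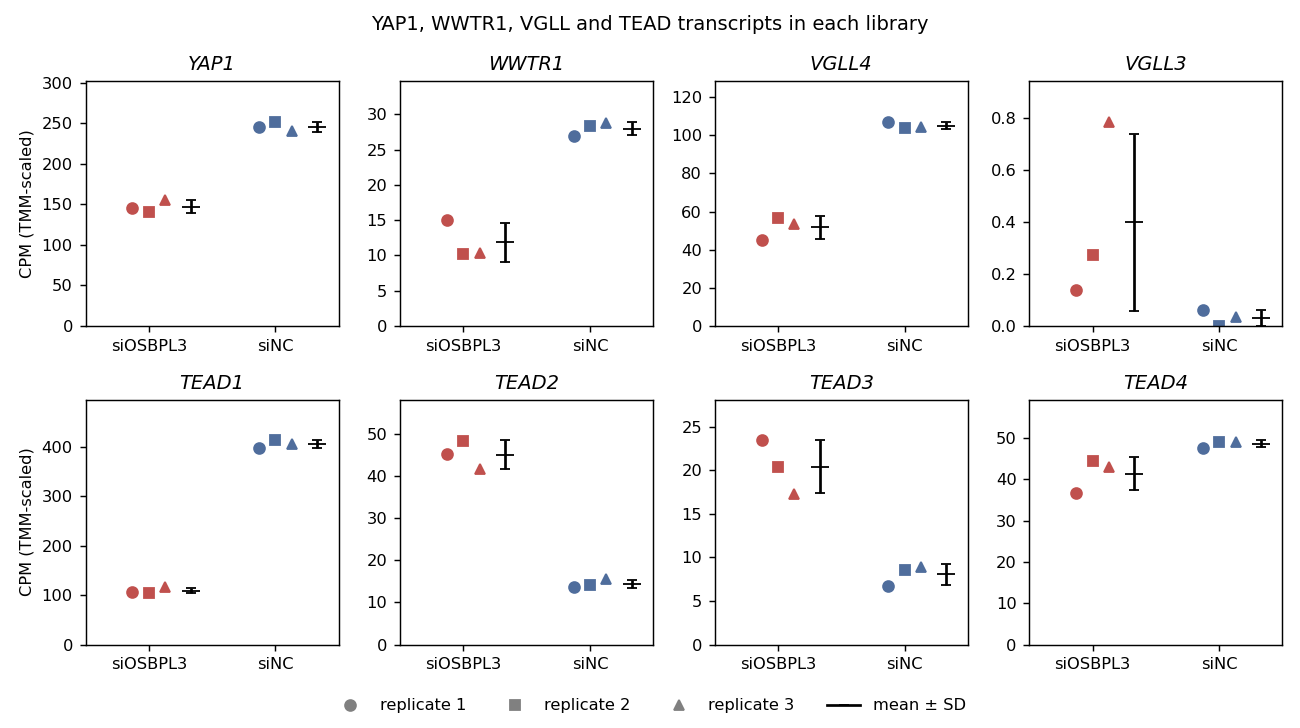
Level of 8 transcripts in each library, as TMM-scaled counts per 1e6 counts (CPM, linear axes from 0), with siOSBPL3 on the left and siNC on the right of each panel; symbols mark replicates and the black bar is the mean ± SD of 3 libraries. YAP1, WWTR1, VGLL4, TEAD1 and TEAD4 lie lower in all 3 siOSBPL3 libraries, without overlap, and TEAD2, TEAD3 and VGLL3 higher, with TEAD4 the closest between groups.

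The TEAD transcripts moved in opposite directions. TEAD1 (chromosome 11, 12674421 to 12944737), the most widely expressed TEAD in human tissues, had 107, 105 and 115 CPM in the siOSBPL3 libraries, against 397, 413 and 405 CPM in the siNC libraries. The groups lay far apart, at 26.9% of the siNC mean in siOSBPL3, a log2 fold change of -1.89 ± 0.08 (adjusted p = 9.2e-10). In absolute size it was larger than the change of 74.2% of the genes tested.

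TEAD2 (chromosome 19, 49340595 to 49362416), best known from the early embryo in mouse, had 45.3, 48.5 and 41.7 CPM in the siOSBPL3 libraries, against 13.8, 14.2 and 15.6 CPM in the siNC libraries. Every siOSBPL3 library was above every siNC library, a 3.11-fold rise (log2 fold change 1.64 ± 0.10, adjusted p = 2.22e-08). DKKL1 and CD37, which overlap the ends of TEAD2 on the opposite strand, had at most 40 counts in any library, against 452 or more for TEAD2.

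TEAD3 (chromosome 6, 35473597 to 35497079), known from placenta, had 23.4, 20.4 and 17.3 CPM in the siOSBPL3 libraries, against 6.70, 8.59 and 8.83 CPM in the siNC libraries. The siOSBPL3 libraries were again all higher, with a relative spread of similar size in the groups (coefficient of variation 14.9% in siOSBPL3 and 14.5% in siNC). The log2 fold change was 1.34 ± 0.15 (adjusted p = 5.05e-06).

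TEAD4 (chromosome 12, 2959397 to 3040676), a TEAD often studied in colorectal and other tumours, had 36.8, 44.5 and 43.0 CPM in the siOSBPL3 libraries, against 47.7, 49.2 and 49.1 CPM in the siNC libraries. The siOSBPL3 libraries were all slightly lower, and replicate 1 the lowest. The log2 fold change of -0.23 ± 0.09 passed the test narrowly (adjusted p = 0.0367). The call was lost without siOSBPL3 replicate 1 (log2 fold change -0.15, adjusted p = 0.0824), without any single siNC library (adjusted p = 0.0678, 0.0944 and 0.0872 without replicate 1, 2 and 3) and when scaled by library totals (0.0583).

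With TEAD1 down and TEAD2 and TEAD3 up, the make-up of the TEAD transcript pool was mixed in siOSBPL3 and led by TEAD1 in siNC. Counts were divided by the union of exons of each gene in GENCODE 29 (10.28 kb for TEAD1, 2.98 kb for TEAD2, 3.05 kb for TEAD3 and 2.27 kb for TEAD4), so that levels could be set between genes. TEAD1 made up 20.9 ± 1.62% of the summed TEAD level in siOSBPL3 and 57.7 ± 0.58% in siNC (SD, n = 3 each). TEAD2 made up 29.9 ± 1.55% in siOSBPL3 and 7.12 ± 0.38% in siNC, and TEAD3 13.2 ± 2.11% in siOSBPL3 and 3.86 ± 0.48% in siNC. TEAD4 had a share of 36.0 ± 2.78% in siOSBPL3 and 31.3 ± 0.23% in siNC, the largest single share in each siOSBPL3 library. Without a correction for length TEAD1 kept the largest share of counts in siOSBPL3 too, at 50.4%, against 85.0% in siNC. There were 2.36, 2.16 and 2.77 TEAD1 counts for each TEAD2 count in siOSBPL3, against 28.8, 29.1 and 26.0 in siNC, a difference of -3.53 in the log2 ratio. The same difference was -3.24 for TEAD1 over TEAD3 and -1.66 for TEAD1 over TEAD4, with no overlap of libraries in either (exact permutation p = 0.1, as above). A correction for GC content and length, given below, moved the difference of TEAD1 over TEAD4 to 0.09. The shares carry no correction for GC content, and which TEAD led in siOSBPL3 with it was not tested.

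**Figure D2:**
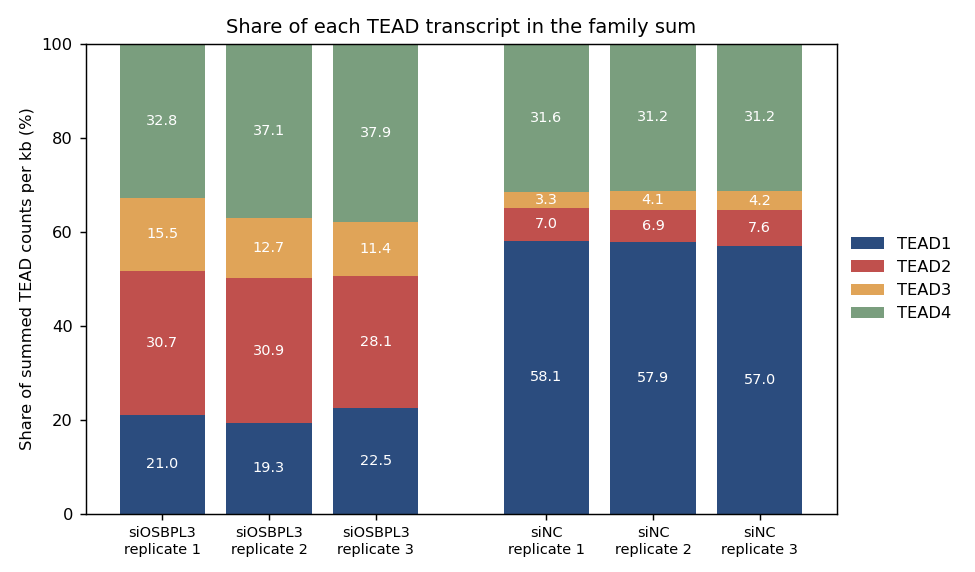
Share of each TEAD gene in the sum of TEAD counts per kb of exon, in percent, for each of the 3 siOSBPL3 libraries (left) and the 3 siNC libraries (right). TEAD1 falls to 19.3% to 22.5% in siOSBPL3, against 57.0% to 58.1% in siNC, while the TEAD2 share is 28.1% to 30.9% in siOSBPL3 and 6.87% to 7.56% in siNC. The shares are not corrected for GC content.

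The summed level of the 4 TEAD transcripts was 50.7 ± 1.80 TMM-scaled counts per 1e6 per kb in siOSBPL3 and 68.3 ± 1.65 in siNC, and that of YAP1 and WWTR1 together was 24.8 ± 1.22 in siOSBPL3 and 42.3 ± 0.93 in siNC (SD, n = 3 each). Partners and coactivators were thus both lower in sum, to 74.2% and 58.6% of siNC. Which of them fell more depended on the scale. Per kb of exon there were 1.98, 2.25 and 1.92 units of TEAD for each unit of YAP1 and WWTR1 in siOSBPL3, against 1.58, 1.60 and 1.67 in siNC. In counts not divided by length, where the long TEAD1 transcript weighs most, the ratio was 1.32, 1.45 and 1.31 in siOSBPL3, against 1.71, 1.73 and 1.78 in siNC. The libraries did not overlap on either scale, but the direction was opposite. Neither scale was corrected for GC content. The correction for GC content and length given below moved the size of change of each of these genes, and the sums were not tested with it.

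VGLL4 (chromosome 3, 11556067 to 11721815), the repressive TEAD cofactor, had 45.2, 56.6 and 53.4 CPM in the siOSBPL3 libraries, against 107, 104 and 104 CPM in the siNC libraries. All siOSBPL3 libraries were lower, at about the same relative level. The mean in siOSBPL3 was 49.3% of that in siNC, a log2 fold change of -1.02 ± 0.09 (adjusted p = 6.65e-07). Relative to YAP1 it was lower as well, at 0.310, 0.403 and 0.344 VGLL4 counts for each YAP1 count in siOSBPL3, against 0.437, 0.412 and 0.435 in siNC. The difference was -0.29 on the log2 scale in these counts, where replicate 2 of siOSBPL3 lay next to the lowest siNC library, and -0.98 corrected for the GC content and length of the transcripts. The autophagy gene ATG7 overlaps VGLL4 on the opposite strand and had 525 to 865 counts per library, with no called difference (log2 fold change 0.19 ± 0.11, adjusted p = 0.122).

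VGLL3 (chromosome 3, 86937973 to 86991149), a cofactor that binds TEAD and is known from mesenchymal cells and muscle, was barely detected. It had 5, 10 and 31 counts in the siOSBPL3 libraries, against 2, 0 and 1 in the siNC libraries, and did not pass the filter on low counts. All siOSBPL3 libraries held more counts than any siNC library, but 67.4% of the siOSBPL3 counts came from replicate 3. Over the groups there were 46 counts in siOSBPL3 and 3 in siNC, a ratio of rates of 13.1 with an exact 95% binomial interval from 4.20 to 65.7, which covers counting error only. Without siOSBPL3 replicate 3 the ratio was 6.58, with an interval from 1.86 to 35.5. At 0.410 CPM over the siOSBPL3 libraries and 0.0313 CPM over the siNC libraries, the transcript was far below the other factors in either group.

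Per kb of exon, the order of the factors differed between the groups. In siOSBPL3 YAP1 stood first at 23.4 ± 1.21 TMM-scaled counts per 1e6 per kb, followed by TEAD4 (18.2 ± 1.79), TEAD2 (15.2 ± 1.14), TEAD1 (10.6 ± 0.56), VGLL4 (7.15 ± 0.82), TEAD3 (6.69 ± 1.00) and WWTR1 (1.41 ± 0.32). The libraries of TEAD4 and TEAD2 overlapped, as did those of VGLL4 and TEAD3, so that these neighbours were not set apart. In siNC TEAD1 (39.4 ± 0.77) and YAP1 (39.0 ± 0.94) stood first and could not be ordered, followed by TEAD4 (21.4 ± 0.36), VGLL4 (14.5 ± 0.24), TEAD2 (4.87 ± 0.32), WWTR1 (3.32 ± 0.11) and TEAD3 (2.64 ± 0.38), with no overlap between these neighbours. VGLL3 was last in both groups, at 0.031 ± 0.027 in siOSBPL3 and 0.0025 ± 0.0024 in siNC. The union of exons counts exons that these cells may not use, so that this order rests on the annotation as well as on the counts. The levels were also not corrected for GC content. The correction given below moved the log2 fold change of TEAD1 from -1.89 to -1.09 and that of TEAD4 from -0.23 to -1.19. The order of the factors with that correction was not tested.

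The base composition of the transcripts moved with these changes. Over the 14434 tested genes with a value, the Spearman correlation of log2 fold change was 0.37 with the GC content of the longest transcript and -0.20 with its length. It runs across genes, which are no independent replicates, and is given as a description. Of the factors that fell, YAP1, WWTR1 and TEAD1 had transcripts of 43.5%, 40.9% and 41.3% GC, below the median of 49% over tested genes, and of those that rose, TEAD2 and TEAD3 had 58.4% and 59.8%. TEAD4, with 60.4% GC, and VGLL4, with 52.1%, also fell, and their transcripts were above that median. With a per-library smooth correction for GC content and length the direction of the 7 tested genes held and each passed the test, but the sizes moved. The log2 fold changes became -0.28 ± 0.07 for YAP1 (adjusted p = 0.00326), -0.65 ± 0.15 for WWTR1 (0.00271) and -1.09 ± 0.07 for TEAD1 (1.34e-07). TEAD2 became 0.89 ± 0.09 (4.8e-06) and TEAD3 0.55 ± 0.13 (0.00306). TEAD4 became -1.19 ± 0.10 (1.64e-06) and VGLL4 -1.26 ± 0.09 (4.07e-07). TEAD4 thereby went from the smallest change of the TEAD genes to one of about the size of TEAD1, and the difference between TEAD1 and TEAD4 on the log2 scale was 0.09 with the correction, against -1.66 without it. The contrast of TEAD1 with TEAD2 and TEAD3 held its direction, at -1.99 and -1.64 with the correction.

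**Figure D3:**
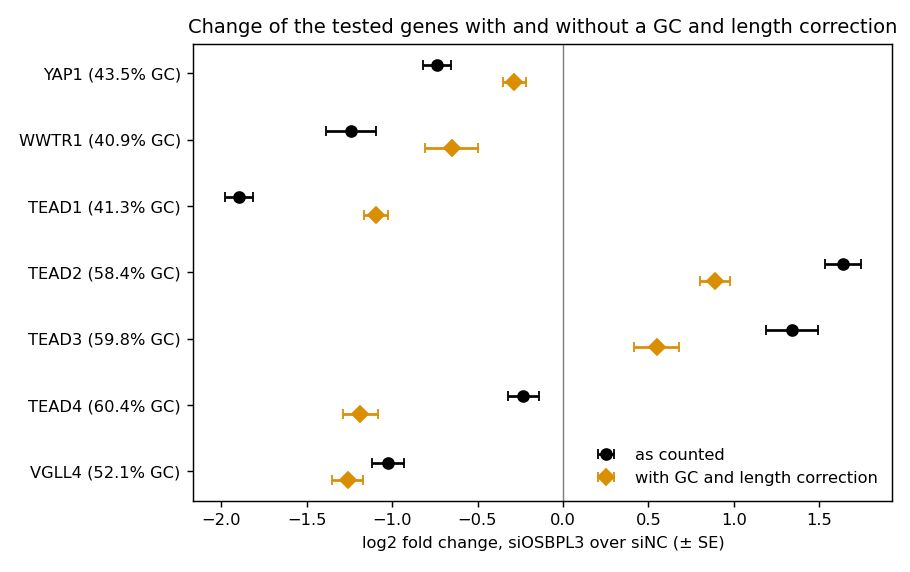
Log2 fold change of the 7 tested genes, siOSBPL3 over siNC, with the standard error of the fit (3 libraries each), as counted (black circles) and corrected for GC content and length (orange diamonds); the GC content of the longest transcript stands beside each name. Each gene keeps its side of 0, but TEAD4 moves from -0.23 to -1.19 and TEAD1 from -1.89 to -1.09.

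Genes known to respond to YAP and TEAD were mostly higher in siOSBPL3, although both coactivator transcripts were lower. Of 22 genes of a YAP target signature 21 were tested, and 15 rose, 5 fell and 1 was not called, beside 40.4% higher and 39.8% lower among all genes tested. Their median log2 fold change was 1.79, and it was the same with FOXF2 set to its bound. CCN2, a secreted matrix protein gene and the gene whose promoter is printed above, had 33.9, 20.2 and 21.4 CPM in siOSBPL3, against 0.609, 1.57 and 1.75 CPM in siNC (log2 fold change 4.27 ± 0.31, adjusted p = 1.11e-07). CCN1, its relative, had 22.4, 24.1 and 22.5 CPM in siOSBPL3, against 1.10, 1.57 and 0.775 CPM in siNC (4.31 ± 0.20, adjusted p = 1.67e-09). All siOSBPL3 libraries lay above all siNC libraries for both genes.

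ANKRD1, a cardiac ankyrin-repeat protein gene used as a reporter of YAP, had 7.42, 4.62 and 5.11 CPM in siOSBPL3, while its 4 counts in siNC all lay in replicate 2. Its fitted log2 fold change of 6.98 ± 0.59 therefore rested on that library. Without that library siNC held no count of ANKRD1, and the fitted 10.65 is no measured size. AMOTL2, an angiomotin that binds YAP, rose by 3.68 ± 0.16 on the log2 scale, NT5E, an ecto-nucleotidase gene, by 7.01 ± 0.19, ARHGEF17 by 5.10 ± 0.20 and CRIM1, whose product binds BMPs, by 2.60 ± 0.11. The 5 that fell, named after their values were seen, were AXL (-2.67 ± 0.52), GADD45A (-1.69 ± 0.09), MYOF (-1.29 ± 0.12), ASAP1 (-0.69 ± 0.12) and FOXF2. AXL, a receptor tyrosine kinase gene, had 8.67, 2.05 and 2.33 CPM in siOSBPL3, against 27.3, 27.2 and 28.0 CPM in siNC, and its log2 fold change was -3.64 without siOSBPL3 replicate 1. FOXF2, a forkhead transcription factor gene, had no count in siOSBPL3 and 940 counts over the siNC libraries, which makes it at least 367-fold lower when 3 counts are taken as the floor of the siOSBPL3 group. Corrected for GC content and length, ASAP1 was no longer called (-0.21, adjusted p = 0.0965). PTPN14, a phosphatase that restrains YAP, was the gene not called (0.02 ± 0.10), and it was called higher with that correction (0.79, adjusted p = 1.72e-05).

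The TEAD core GGAATG was found in 9 of the 18 promoter windows held for target genes, beside 14.0% of all windows and 11.8% of windows of tested genes. The target list is a YAP signature, so that a high share may follow from how it was chosen. By gene the core was found in 9 of the 16 target genes with a window, beside 16.7% of all genes and 15.3% of tested genes. Of those 9 genes 6 rose, 2 fell and 1 was not called. Of the 6 tested target genes with a window but no match, 5 rose and 1 fell. Among the factors themselves 2 of 13 windows held a match (15.4%), those of YAP1 and VGLL1, and none of the 13 held the AP-1 motif TGANTCA, which was in 7.7% of all windows.

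Among the regulators of YAP and TAZ the shares called were close to those of all genes tested. Of 31 kinase, adaptor, scaffold and degradation genes, 29 were tested, with 11 higher (37.9%), 12 lower (41.4%) and 6 not called (median log2 fold change -0.01), beside 40.4% higher and 39.8% lower over all genes. WWC1, which encodes the scaffold KIBRA, rose by 2.39 ± 0.09, and its relative WWC2 fell by 1.98 ± 0.08. STK4, the gene of an MST kinase at the head of the cascade, stood at 47.8 ± 8.69 CPM in siOSBPL3 and 234 ± 4.30 CPM in siNC (log2 fold change -2.29 ± 0.12, adjusted p = 4.42e-09). AMOTL2, which rose, belongs both to this list and to that of the target genes. So do PTPN14, which was not called, and LATS2, which rose by 1.79 ± 0.12 and is named only as a shared gene. With the GC and length correction 17 of these genes were called higher and 6 lower, so that the balance of the list depended on that choice.

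Among 22 tested genes of transcription factors and cofactors that act with TEAD or YAP, 5 were higher (22.7%), 11 lower (50%) and 6 not called (median log2 fold change -0.39), beside the same 40.4% and 39.8% over all genes. TP73, a p53-family gene whose product binds YAP, stood at 22.9 ± 5.73 CPM in siOSBPL3 and at 0.084 ± 0.077 CPM in siNC (log2 fold change 8.03 ± 0.40, adjusted p = 2.62e-09). With 8 counts in siNC its fitted size is loose, from 7.45 to 8.79 when single siNC libraries were left out. The RUNX genes, whose products are known as partners of YAP and TAZ, diverged, as the TEAD genes did. RUNX1 fell by 1.78 ± 0.08 on the log2 scale and RUNX3 stood at 0.065 ± 0.11 CPM in siOSBPL3 and 18.3 ± 1.37 CPM in siNC. The 7 counts of RUNX3 in siOSBPL3 all lay in replicate 1. Its fitted log2 fold change was -8.11 ± 0.44. Without that library siOSBPL3 held no count of RUNX3, and the fitted -12.29 is no measured size. RUNX2, named after its values were seen, rose (1.59 ± 0.12, adjusted p = 1.71e-07). NCOA3, a nuclear receptor coactivator gene, fell by 2.10 ± 0.10.

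**Figure D4:**
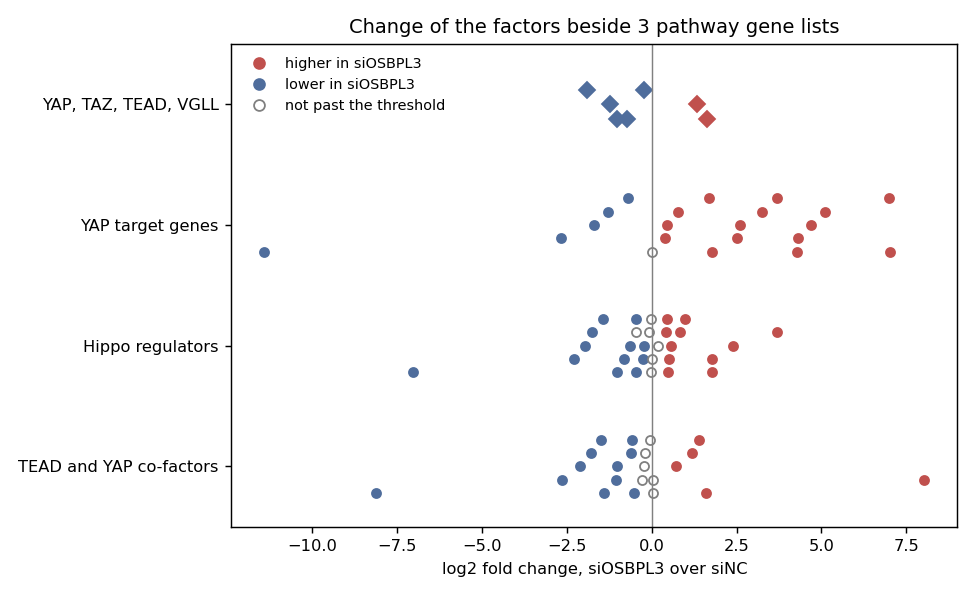
Log2 fold change, siOSBPL3 over siNC, of the 7 tested factors (diamonds, top row) and of the tested genes of 3 lists (circles), 21 YAP target genes, 29 regulators and 22 cofactors; red marks genes called higher in siOSBPL3, blue genes called lower and open circles genes not called at an adjusted p of 0.05. Most target genes lie right of 0, while regulators and cofactors lie on both sides; FOXF2, at the far left, had no count in siOSBPL3, so that its fitted value is no bound.

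Genes whose profile over the 6 libraries came closest to those of YAP1 and TEAD1 were sought among 11199 genes that averaged 5 CPM or more, by the Euclidean distance between mean-centred log2 CPM profiles. The nearest to YAP1 were FBXO30 (distance 0.030), CYB5B (0.041) and RSRC2 (0.055), with log2 fold changes of -0.73, -0.73 and -0.75. With the GC and length correction FBXO30 turned to 0.51, and CYB5B and RSRC2 became -0.24 and -0.38. The nearest to TEAD1 were GCC2 (0.070), AMN1 (0.082) and POU2F1 (0.085), with log2 fold changes of -1.85, -1.89 and -1.95, which became -0.95, -1.44 and -0.87 with the correction. The distances measure likeness in these 6 libraries only. The profiles were not scaled, so that the group difference weighs most. That the nearest genes had log2 fold changes close to those of YAP1 or TEAD1 therefore follows from the measure.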

How the data were processed

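RNA-seq was made from 3 siOSBPL3 and 3 siNC libraries of cells labelled as SW620. The authors deposited raw read counts per gene symbol, 1 column per library, with no normalization, and HISAT2 2.2.1, HTSeq 0.13.5 and GRCh38 are named in the submitters' processing notes. Annotation, strand setting and counting options are not given in the sources used here, so that reads of overlapping genes, and of annotated YAP1 pseudogenes, cannot be told apart. Libraries were assigned by their titles. No pair of replicates looked like one library: chi-square over degrees of freedom was 19.5 to 52.1 in siOSBPL3 and 2.98 to 3.59 in siNC.

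The main test was that of edgeR 4.0.16 (R 4.3.3): filterByExpr (minimum count 10, total 15), TMM scaling, a robust quasi-likelihood fit on group, two-sided, with p-values adjusted by Benjamini-Hochberg over the 15506 genes and called under 0.05. The SE is the log2 fold change, siOSBPL3 over siNC, divided by the root of F. The fit was checked on simulated data in which only a small part of the genes differed. That check does not cover a difference as wide as the one between these groups. Ratios of genes used raw counts plus 0.5. Lengths and GC content came from GENCODE 29 (93.1% of tested genes), and positions and promoter windows from RefSeq on GRCh38.p14. Alternatives were DESeq2 1.42.0, limma-voom (limma 3.58.1), RLE factors, library totals, other filters, calls under 0.01, a replicate block, leaving out each library, and a GC and length correction (mgcv 1.9.3). One count was worth 0.0253 to 0.0277 CPM in siOSBPL3 and 0.0301 to 0.0337 CPM in siNC.

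The factors, gene lists and tests were chosen with earlier results of these data known. Genes named were the factors, OSBPL3, the 4 called genes with the smallest adjusted p of each list, CCN1, CCN2, ANKRD1 and AMOTL2, and the 3 nearest profiles to YAP1 and TEAD1. Others are marked where named, or belong to the marker lists or overlap a factor.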

Additional observations from a re-analysis of the deposited data

How the results depend on the processing

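The log2 fold changes of YAP1, WWTR1, TEAD1, TEAD2, TEAD3 and VGLL4 kept their direction and their call under all 15 alternatives run for each. Leaving out each library in turn, they ran from -0.77 to -0.70 for YAP1, -1.44 to -1.14 for WWTR1, -1.93 to -1.86 for TEAD1, 1.59 to 1.70 for TEAD2, 1.23 to 1.45 for TEAD3 and -1.09 to -0.93 for VGLL4. TEAD4 ran from -0.28 to -0.15 with each library left out, and kept its call under 9 of its 15 alternatives. It was not called without siOSBPL3 replicate 1 or without any single siNC library. Nor was it called with library totals (-0.19, adjusted p = 0.0583) or at a threshold of 0.01 (-0.23). Over all alternatives it ran from -1.19 to -0.15, with an adjusted p from 1.64e-06 to 0.0944. The genes called numbered 12437, and from 9399 to 13157 under the alternatives. Of the regulators 17 were called higher and 6 lower with the GC and length correction.

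In 2 checks added after the data were seen, that correction turned the log2 difference of TEAD1 over TEAD4 to 0.0916, and counts per kb turned that of the TEAD sum over YAP1 and WWTR1 to 0.34, against -0.36 in counts. Without length correction the TEAD1, TEAD2, TEAD3 and TEAD4 shares were 50.4%, 20.9%, 9.45% and 19.2% in siOSBPL3 and 85.0%, 3.05%, 1.69% and 10.2% in siNC. With the longest transcript TEAD3 and TEAD4 took 10.9% and 39.1% in siOSBPL3, and TEAD1, TEAD3 and TEAD4 took 56.1%, 3.16% and 33.8% in siNC. Leaving out each library, PTPN14 ranged from -0.0366 (siOSBPL3 replicate 2; -0.0094 for replicate 3) to 0.1127 (siOSBPL3 replicate 1), and FBXO30 was at 0.51 with the GC and length correction.

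No pairing by replicate number was seen: deviations of same-numbered libraries correlated at -0.05, 0.01 and -0.06. Since the siNC libraries differed little from each other, a pairing could have gone unseen. With the replicate block 12277 genes were called and the 7 tested factors kept their calls, TEAD4 at an adjusted p of 0.0423. VGLL3 is limited by depth, and gave a log2 fold change of 3.53 ± 1.06 (adjusted p = 0.00544) with no filter.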

Other observations

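The genes next to the factors on their chromosomes were described after the values were seen, as the 5 tested genes on either side of each. Neighbours share position and are not independent. Of the 10 neighbours of YAP1, which include the apoptosis inhibitor genes BIRC2 and BIRC3, 1 was higher and 8 were lower in siOSBPL3 (median log2 fold change -1.28), and of the 10 around TEAD1, on the same chromosome, 1 was higher and 8 were lower (median -1.20). The neighbours of TEAD2 went the other way, with 7 of 10 higher and 1 lower (median 1.31), in the direction of TEAD2 itself. Around VGLL4, which fell, 6 of 10 were higher and 1 lower (median 1.12), against the direction of the gene. Around WWTR1 3 were higher and 6 lower (median -0.34), around TEAD3 5 and 3 (median 0.32), and around TEAD4 3 and 5 (median -0.27). Among all tested genes 40.4% were higher and 39.8% lower.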
